A study of Mus musculus with 12 samples.

Results

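The response of mouse epiblast stem cells (EpiSCs) to CHIR99021 alone was read from 6 of the 12 arrays of a study of that compound and of XAV939: 3 arrays of cells given CHIR99021 at 3 µM for 2 h and 3 of untreated cells. The arrays were chosen by their treatment labels, and 19938 genes were compared. All groups had the 129 genetic background and had been kept without serum for 12 h beforehand. A medium with 10% serum is also recorded for every sample, and no vehicle is named for the untreated cells. The other 6 arrays, 3 with XAV939 at 2 µM and 3 with both compounds, shared the estimate of the spread and gave the same CHIR99021 contrast in the presence of XAV939. The time with XAV939 is 2 h in the sample labels and 4 h in the design text. The labels do not say whether the 3 samples per group were separate cultures, and the p-values therefore reflect only sample-to-sample spread, possibly technical.

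CHIR99021 inhibits GSK3, a kinase that marks beta-catenin for degradation while both are held by Axin and APC in the destruction complex. When the kinase is blocked, beta-catenin enters the nucleus and acts with TCF/LEF proteins on Wnt target genes, several of which encode inhibitors of the pathway. EpiSCs resemble the epiblast of the implanted embryo, where Wnt and Nodal signals set up the primitive streak.

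Expression is given throughout as the deposited log2 value, and a change is the CHIR99021 mean minus the untreated mean on that scale. Array medians lay between 5.22 and 5.27 and correlations between arrays between 0.990 and 0.995. The labels name the cells EpiSCs in some fields and embryonic stem cells in another. The 8 EpiSC markers, among them Pou5f1, Fgf5 and Otx2, were all above the background level of 4.93, and their mean per array was 9.84 to 9.89 in untreated and 9.88 to 9.89 in CHIR99021 arrays. That level was the 95th percentile over 1190 odorant and pheromone receptor genes. Of the fibroblast markers 3 of 7 exceeded it (array means 4.98 to 5.09 untreated and 4.94 to 5.01 with CHIR99021), as did 4 of 8 extraembryonic endoderm markers (4.97 to 5.04 and 4.93 to 4.97), 2 of 6 trophoblast markers (5.26 to 5.30 and 5.30 to 5.33) and all 6 neural markers (6.07 to 6.10 and 5.91 to 6.05). In these bulk samples, a shift in the share of a cell type and a shift in RNA per cell cannot be told apart.

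After CHIR99021, 51 genes were higher and 33 lower, led by the genes of 2 secreted factors, Fst and Nodal, followed by the homeobox gene Gbx2 and the Wnt feedback genes Sp5 and Axin2. A gene was called when its limma p, adjusted by Benjamini-Hochberg over all 19938 genes, was under 0.05. The 84 calls made up 0.421% of the genes, the rises 0.256% and the falls 0.166%. Most changes were small: the median size was 0.56 among the rises and 0.45 among the falls, and 6 called genes changed by more than 1. In all 84 the CHIR99021 arrays did not overlap the untreated arrays, but the same held for 8.09% of all genes in the upward and 8.25% in the downward direction. The count fell whichever of the 6 compared arrays was left out. Leaving out untreated replicate 1, 2 or 3 gave 44, 49 or 34 calls, and leaving out CHIR99021 replicate 1, 2 or 3 gave 57, 35 or 45. Whether this reflects single arrays or only the smaller groups was not tested. Rises numbered 29 without untreated replicate 3 or CHIR99021 replicate 2, and falls as few as 5 without untreated replicate 3.

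**Figure D1:**
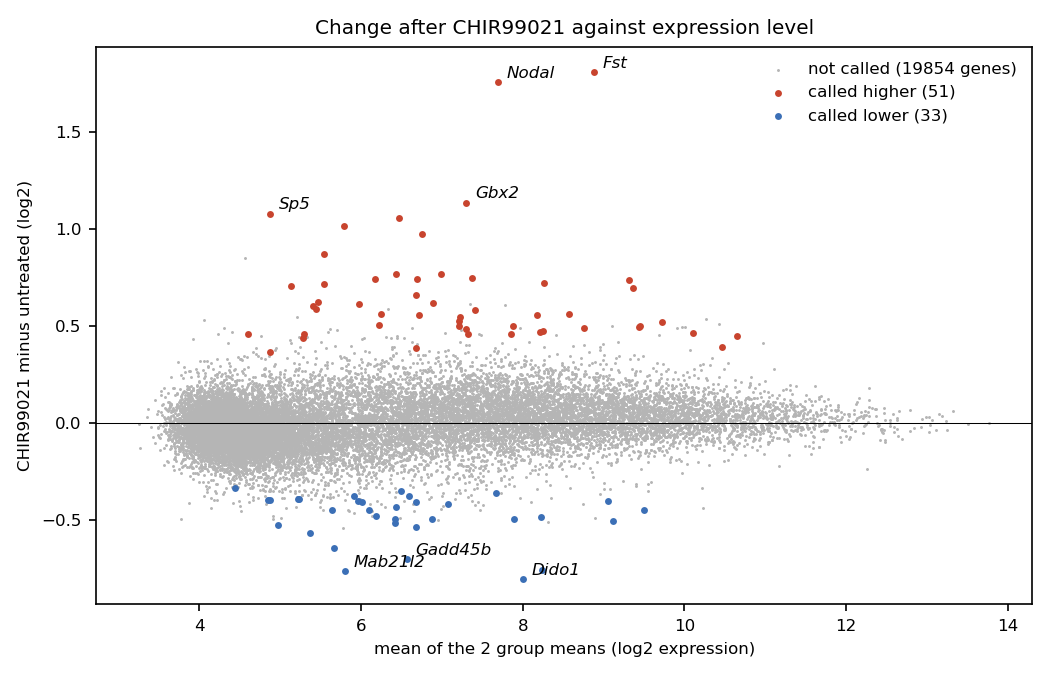
Change after CHIR99021 (log2, vertical axis) against the mean of the 2 group means (log2 expression, horizontal axis), 1 point per gene, with the 51 genes called higher in red, the 33 called lower in blue and the rest in grey. Fst (1.81) and Nodal (1.76) lie apart from the other genes, and no fall exceeds 0.80 in size.

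Genes that restrain Wnt signalling were among the clearest rises. Of 20 feedback and inhibitor genes measured, 5 were called higher and none lower, where 0.256% of all genes were called higher. Their median change was 0.07 against -0.01 over all genes, but 11 of the 20 had a mean below background. Other fits gave 3 to 5 rises on this list. Here and below, gene lists were chosen with earlier results of these data known, and some genes are on more than 1 list. The share over all genes is therefore not an even comparison for a list. Axin2, a scaffold of the destruction complex, measured 5.77, 6.04 and 6.03 in the untreated and 6.96, 7.03 and 7.02 in the CHIR99021 arrays. All CHIR99021 values were higher, a 2.09-fold rise (change 1.06, SE 0.10, limma adjusted p = 4.83e-05). Sp5, a zinc-finger factor of the Wnt response, stood at 4.40, 4.19 and 4.41 without and at 5.65, 5.46 and 5.15 with the compound. The groups were separate and the measured change was 1.08 (SE 0.13, limma adjusted p = 0.00056). As all untreated values were below background, the level there is only bounded, and set against the background level the rise was at least 1.40-fold. In all, 8 called genes had at least 1 group wholly below background. Znrf3, a ubiquitin ligase that removes Frizzled receptors, rose by 0.62 (SE 0.09), from 6.71, 6.53 and 6.51 to 7.09, 7.15 and 7.37. Tnfrsf19, a Wnt-responsive receptor gene, rose by 0.56 (SE 0.08). Dkk1, a secreted antagonist of the Lrp co-receptors, rose by 0.37 (SE 0.08, limma adjusted p = 0.0473), with 4.68, 4.67 and 4.69 in untreated cells and 5.16, 5.07 and 4.93 with CHIR99021. Set against the background level it was at least 1.09-fold higher. Its call was lost in 14 of the 22 other fits that tested it. The feedback genes Nkd1 (0.10), Notum (-0.08) and Rnf43 (-0.08) were not called.

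The supply and reception of Wnt signals changed at a few genes. Of 21 genes of Wnt ligands and their secretion, 2 were called higher, and 14 of the 21 had a mean below background. Wnt8a, a ligand of the early embryo, read 7.95, 7.95 and 7.80 in untreated and 8.61, 8.60 and 8.65 in treated cells. These values did not overlap, and the change was 0.72 (SE 0.08, limma adjusted p = 0.000179). Porcn, the enzyme that attaches a lipid to Wnt proteins before secretion, rose by 0.39 (SE 0.08), and its call was lost in 8 of 24 other fits. Among 22 receptor and R-spondin genes, 2 were called higher: Rspo3, a ligand that protects Frizzled from Znrf3, by 0.63 (SE 0.08), and Lgr5, an R-spondin receptor, by 0.49 (SE 0.07). Lgr5 moved from 7.07, 7.04 and 7.06 to 7.48, 7.59 and 7.57. Dact1, which encodes a Dishevelled-binding protein, rose by 0.71 (SE 0.10), or at least 1.47-fold against the background level, and Vangl1, a planar cell polarity gene, fell by 0.43 (SE 0.07).

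The genes of the target kinase were not called, nor, apart from Axin2, were the genes examined for the destruction complex and its regulators. Gsk3a measured 9.46, 9.39 and 9.45 without and 9.40, 9.31 and 9.40 with CHIR99021, and Gsk3b 9.75 in each untreated array and 9.72, 9.65 and 9.76 in the treated ones. Ctnnb1, which encodes beta-catenin, had a change of 0.05 (SE 0.08). None of the 20 genes on that list, which leaves out Axin2 (counted with the feedback genes) and takes in regulators such as Dvl1 and Tnks, was called, and their median change was 0.00. No call was made either among 15 genes of TCF/LEF factors and their cofactors, where Lef1 had a change of 0.07 (SE 0.07) and Tcf7l1, a repressor, -0.01 (SE 0.07). Tcf7 was not analysed here.

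Nodal and Fst showed the largest changes of all genes. Nodal is a TGF-beta family ligand of the epiblast, and Fst encodes follistatin, which binds and blocks activin. Nodal read 6.92, 6.78 and 6.75 in untreated and 8.49, 8.57 and 8.67 in CHIR99021 arrays, a 3.39-fold rise (change 1.76, SE 0.09, limma adjusted p = 2.39e-08). For Fst the values were 7.88, 8.08 and 7.97 against 9.83, 9.79 and 9.75, a 3.51-fold rise (change 1.81, SE 0.10, limma adjusted p = 2.39e-08). Both pairs of groups were more than 1 unit apart. They were the only calls among 27 genes of the Nodal and activin pathway, whose median change was -0.05. Lefty1 and Lefty2, which encode Nodal inhibitors and are known Nodal targets, had changes of -0.25 (SE 0.08, limma adjusted p = 0.26) and -0.04, with all values below background. The inhibitory Smad7 had a change of -0.32 (limma adjusted p = 0.237) and the activin subunit gene Inhbb one of -0.39 (limma adjusted p = 0.128).

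Promoters of Sp5, Nodal and Axin2 are shown because these genes, with Fst, had the largest rises among the Wnt feedback and Nodal pathway genes. No window is shown for Fst. Each window runs from 250 bases before to 50 after the start in RefSeq, build GRCm38.p6, on the plus strand, at chr2:70474673-70474972 for Sp5, chr10:61417722-61418021 for Nodal and chr11:108920099-108920398 for Axin2. Capitals mark TCF/LEF-type motifs, which are CTTTG followed by AA, AT, TA or TT, searched on both strands.
Sp5: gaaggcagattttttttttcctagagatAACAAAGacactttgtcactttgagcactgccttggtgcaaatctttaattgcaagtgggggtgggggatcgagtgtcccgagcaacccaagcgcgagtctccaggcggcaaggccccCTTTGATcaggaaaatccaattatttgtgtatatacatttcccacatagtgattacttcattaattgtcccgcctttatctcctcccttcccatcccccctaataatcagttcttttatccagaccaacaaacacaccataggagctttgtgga
Nodal: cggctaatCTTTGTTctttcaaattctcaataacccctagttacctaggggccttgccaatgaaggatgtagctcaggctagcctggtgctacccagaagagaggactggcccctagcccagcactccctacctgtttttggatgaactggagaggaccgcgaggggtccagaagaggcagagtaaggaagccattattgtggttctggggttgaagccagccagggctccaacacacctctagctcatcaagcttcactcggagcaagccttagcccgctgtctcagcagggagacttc
Axin2: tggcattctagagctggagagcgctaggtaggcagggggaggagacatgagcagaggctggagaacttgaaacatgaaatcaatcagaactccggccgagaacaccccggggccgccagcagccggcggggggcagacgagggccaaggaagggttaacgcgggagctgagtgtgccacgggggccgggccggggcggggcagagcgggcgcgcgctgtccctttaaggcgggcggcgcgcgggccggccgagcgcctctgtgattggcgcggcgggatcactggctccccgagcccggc
The Sp5 window held 2 matches, first bases at -222 and -104 from the start, the Nodal window 1 at -242 and the Axin2 window none. Such a match occurred in 16.9% of all 32851 promoter windows, in 7 of 48 windows of genes called higher (14.6%) and in 6 of 38 of genes called lower (15.8%). The windows came from 37 of the 51 genes called higher and 24 of the 33 called lower, and some genes had more than 1 window. Near the start, these windows of rising genes thus carried these letters at about the share of all windows.

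Of 18 other Wnt targets, 5 were called higher, where 0.256% of all genes were, and some of them also mark the streak. The lists overlap, and each of the 5 is also counted with the receptor, streak or naive genes. Gbx2, a homeobox gene of naive pluripotency and of hindbrain patterning, measured 6.69, 6.86 and 6.65 in untreated and 7.82, 7.87 and 7.92 in treated cells. The arrays were separate, a 2.20-fold rise (change 1.14, SE 0.09, limma adjusted p = 1.06e-05). Eomes, a T-box factor of the streak, rose by 0.59 (SE 0.09), from 7.12, 7.16 and 7.06 to 7.70, 7.80 and 7.60. Cdx2, a caudal homeobox gene of the posterior embryo and of trophoblast, rose by 0.46 (SE 0.09, limma adjusted p = 0.0461), but its values were 4.19, 4.40 and 4.53 against 4.80, 4.73 and 4.96, of which 1 exceeded background, and no fold is given. Its call was lost in 10 of 22 other fits, among them each fit without 1 CHIR99021 array. Rspo3 and Lgr5 completed the group. Among 26 streak and endoderm genes, Wnt8a, Eomes and Cdx2 were the calls, with a median change of -0.02, and the list had 2 calls in some other fits. Of the 26 genes, 14 had a mean below background, where a change is hard to see. Mixl1 (0.20), Gsc (-0.13) and Foxa2 (-0.11) were not called, and Tbxt (brachyury) was not analysed here. Zeb2, a repressor known for its part in epithelial-mesenchymal transition, rose by 0.75 (SE 0.07), from values of 6.93 to 7.06 in untreated to 7.68 to 7.84 in treated arrays. It was the only call of 19 genes on that list.

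Core pluripotency genes were not called. Pou5f1 measured 11.43, 11.49 and 11.46 against 11.41, 11.49 and 11.43, and Sox2 had a change of 0.01 (SE 0.08). Nanog was higher in every treated array, at 9.24, 9.07 and 9.13 against 8.89, 8.69 and 8.73, but its change of 0.38 (SE 0.10) did not pass (limma adjusted p = 0.123). None of 15 core and none of 17 primed epiblast genes was called. In the primed list, Nkx1-2 came nearest (0.55, SE 0.12, limma adjusted p = 0.0689). Of 18 naive genes, 8 of them with a mean below background, only Gbx2 was called, and Tbx3 had a change of 0.41 (SE 0.11, limma adjusted p = 0.129). The mean of 7 naive markers was 4.96 to 5.01 in untreated and 5.11 to 5.27 in CHIR99021 arrays, with 4 markers above background. Its part in these results was not tested.

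**Figure D2:**
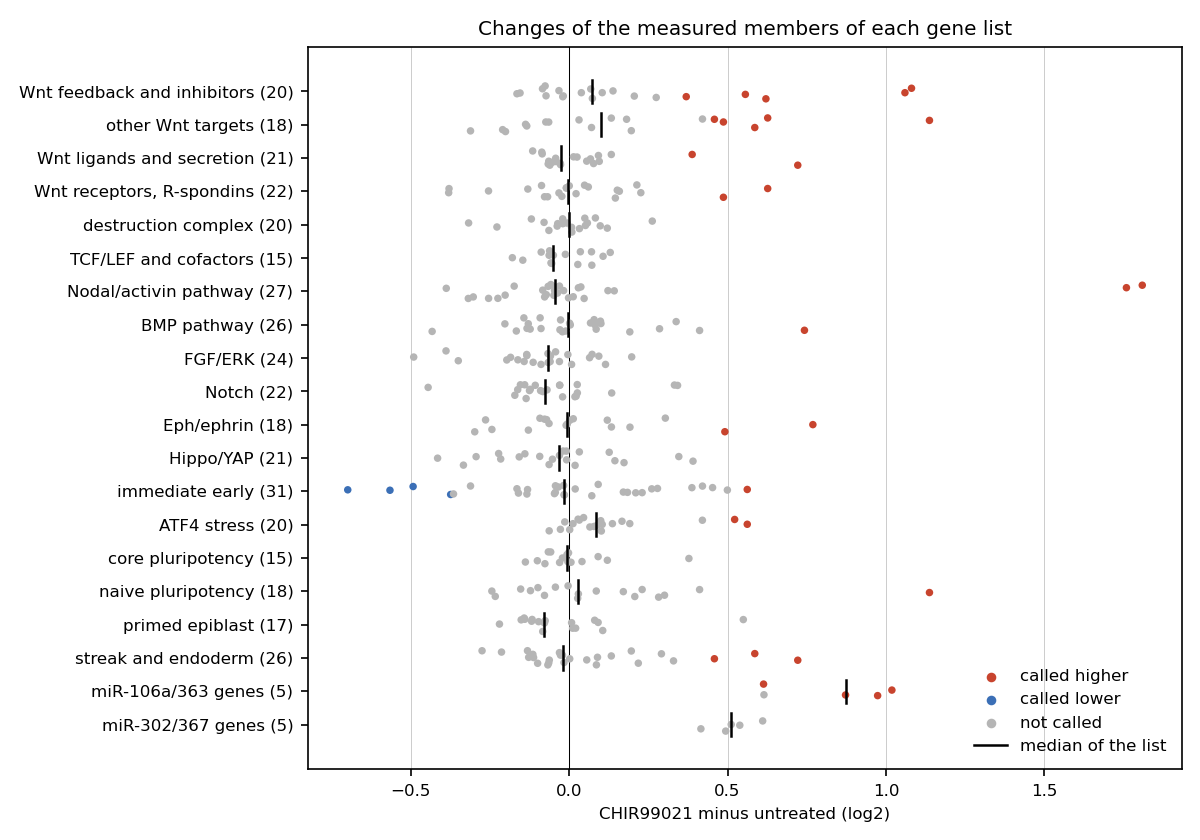
Change after CHIR99021 (log2, horizontal axis) of each measured member of 20 gene lists, with the number measured in brackets, called members in red (higher) or blue (lower), and the list median as a black line. Rises of single genes stand out from lists whose medians lie near 0, except in the lists of microRNA genes around Mir106a (0.87) and Mir302a (0.51).

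MicroRNA genes of 1 cluster on chromosome X were higher after CHIR99021. MicroRNAs pair with messenger RNAs mainly through the seed, bases 2 to 8, and genes of a cluster are commonly cut from 1 transcript. The called genes Mir106a, Mir20b, Mir19b-2 and Mir92-2 lie with Mir363 within 875 bases, at chrX:52741693-52742567 on the minus strand (GRCm38.p6). Their main mature sequences, from RefSeq, are shown to set out which seeds they share, with the seed in capitals.
mmu-miR-106a-5p: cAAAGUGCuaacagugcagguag
mmu-miR-20b-5p: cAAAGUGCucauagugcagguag
mmu-miR-92a-3p: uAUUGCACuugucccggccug
mmu-miR-363-3p: aAUUGCACgguauccaucugua
mmu-miR-19b-3p: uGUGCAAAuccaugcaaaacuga
The first pair shares the seed AAAGUGC, the second pair AUUGCAC, and miR-19b-3p has GUGCAAA.

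Mir106a read 4.99, 5.50 and 5.35 in untreated and 6.30, 6.19 and 6.40 in treated cells, a 2.03-fold rise (change 1.02, SE 0.13, limma adjusted p = 0.000681). Mir19b-2 stood at 5.76, 6.64 and 6.42 against 7.17, 7.11 and 7.46 (change 0.97, SE 0.19, limma adjusted p = 0.0323), and Mir20b at 4.78, 5.30 and 5.23 against 5.78, 5.86 and 6.29 (change 0.87, SE 0.17, limma adjusted p = 0.0323). Mir92-2 rose by 0.61 (SE 0.11). In each of them untreated replicate 1 was the lowest array. Mir363 measured 6.77, 7.25 and 7.10 against 7.46, 7.51 and 7.99, also without overlap, but was not called (0.61, SE 0.17, limma adjusted p = 0.146). Calls were lost in 8 of 24 other fits for Mir19b-2, in 6 for Mir20b and in 4 for Mir92-2, and in none for Mir106a. In RefSeq, Mir106a overlaps Kis2, which was not analysed here. Probes of this kind do not tell a precursor from a mature microRNA.

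Related clusters give a comparison. All 5 genes of the cluster of Mir302a to Mir302d and Mir367, which is known for its activity in pluripotent cells, had changes of 0.42 to 0.61, and none was called. Mir367 had the largest, 0.61 (SE 0.14, limma adjusted p = 0.0775). CHIR99021 replicate 2 was the lowest treated array for each of the 5. None of 5 genes of the miR-17/92 cluster (median 0.13) and none of 3 of the miR-106b/25 cluster (median 0.07) was called. Mir19b-1, which yields the same mature miR-19b-3p as Mir19b-2, had a change of 0.39 (SE 0.10, limma adjusted p = 0.105).

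**Figure D3:**
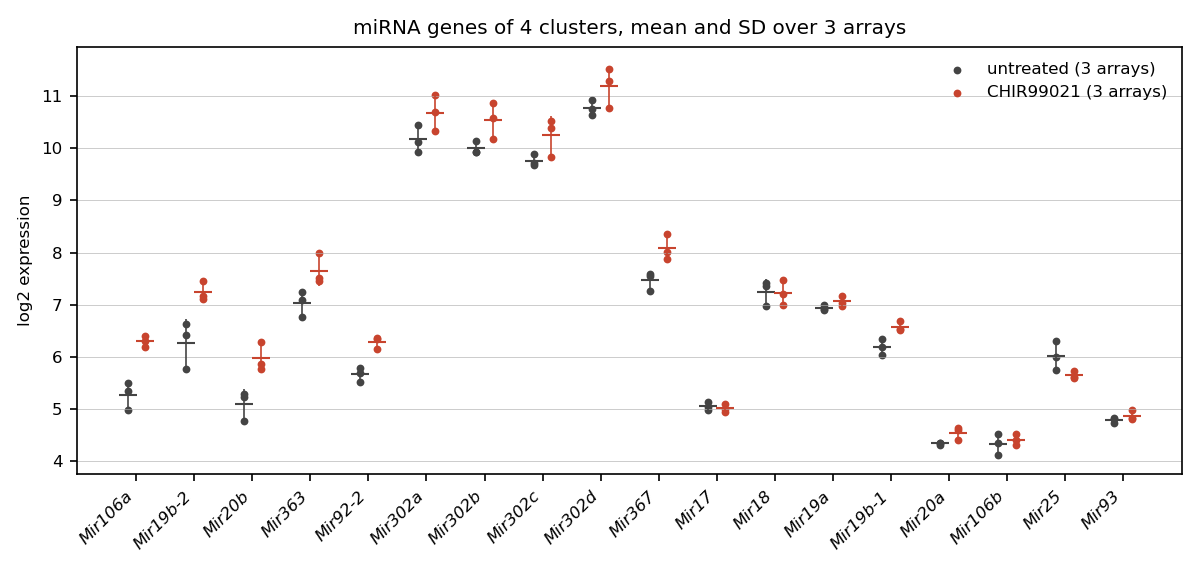
Log2 expression (vertical axis) of the measured microRNA genes of 4 clusters in 3 untreated (dark) and 3 CHIR99021 (red) arrays, with the mean as a bar and the SD as a line. For Mir106a, Mir19b-2, Mir20b, Mir363 and Mir92-2, on the left, all treated arrays lie above all untreated ones.

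Single members of other signalling families rose. Epha4 and Epha7, receptors for ephrins that guide cell sorting, rose by 0.77 (SE 0.11) and 0.49 (SE 0.08), the 2 calls among 18 Eph and ephrin genes. Epha4 read 6.05, 6.12 and 5.98 without and 6.69, 6.93 and 6.83 with the compound, with no overlap. Rgma, a co-receptor for BMP ligands, was the only call of 26 BMP pathway genes, at 6.07, 5.70 and 5.64 against 6.44, 6.61 and 6.59 (change 0.74, SE 0.11). Sgk1, a kinase gene related to Akt, was the only call of 21 genes of glycogen and insulin signalling, at 6.51, 6.77 and 6.52 against 7.41, 7.36 and 7.34 (change 0.77, SE 0.10). No gene was called among 22 Notch, 21 Hippo/YAP and 19 MYC network genes. Myc itself had a change of -0.31 (SE 0.09, limma adjusted p = 0.153).

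No FGF/ERK gene of 24 was called, and the median change was -0.07. Fgf4, a growth factor gene of pluripotent cells, came closest, at 9.05, 9.13 and 9.24 against 8.65, 8.63 and 8.66 (change -0.49, SE 0.10, limma adjusted p = 0.0533). All treated arrays were lower, and the gene was called in 11 of 24 other fits. The ERK phosphatase gene Dusp7 (-0.35, limma adjusted p = 0.0605) and the FGF antagonist gene Spry1 (-0.39, limma adjusted p = 0.0955) were also not called.

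Further large rises came from genes of varied roles. Has2, which encodes a hyaluronan synthase, read 9.20, 8.95 and 8.68 against 9.76, 9.54 and 9.74 (change 0.74, SE 0.12). Dmrta1, a DM-domain factor gene, rose from 5.24, 5.27 and 5.04 to 5.92, 5.97 and 5.82 (change 0.72, SE 0.08). Cited2, a partner of the coactivators CBP and p300, rose by 0.70 (SE 0.08), and the zinc-finger gene Zfp677 by 0.74 (SE 0.11). Each of these 4 showed no overlap between groups. Smaller rises were those of Sat1 of polyamine breakdown (0.56), the polo-like kinase gene Plk2 (0.50), Tiparp (0.49), the transcription elongation genes Ccnt2 (0.47) and Eloa (0.46), Fnip1 (0.47) and the forkhead gene Foxi3 (0.45). Of 24 other fits, 10 lost the call of Foxi3, 7 that of Fnip1, 6 that of Ccnt2 and 6 that of Eloa. None lost that of Sat1, Plk2 or Tiparp. Of 20 genes of the ATF4 stress response, 17 had a change above 0, against 9581 of all 19938 genes, and 2 were called higher: Atf3, a stress-induced factor (0.56, SE 0.11), and Ddit4, an inhibitor of mTORC1 (0.52, SE 0.09). The median change of all genes also varied with brightness, from -0.05 to 0.04 between groups of genes ordered by mean level. It was 0.03 in the brightest group, and no gene of the ATF4 list had a mean below background. The share over all genes is therefore not matched to this list for brightness, and the list was chosen with earlier results of these data known. The Atf3 call was lost in 7 and the Ddit4 call in 3 of 24 other fits, and the list had no call in some of them. Mean Atf3 was 8.30 in untreated, 8.86 in CHIR99021 and 8.88 in XAV939 arrays, and mean Ddit4 9.47, 9.99 and 9.94. Both genes were thus also higher with XAV939 alone. In the presence of XAV939 their CHIR99021 changes were 0.09 and 0.19, neither called. The reason was not tested.

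Single immediate early genes were called in both directions. Of 31 measured, Atf3 was called higher, and Gadd45b, Rhob, Pim1 and Zfp36 were called lower. Of all genes, 0.256% were called higher and 0.166% lower. The other 26 on the list were not called, and its median change was -0.02. Other fits gave 0 to 2 rises and 1 to 4 falls on it. Gadd45b, a stress-responsive gene, measured 6.96, 6.97 and 6.83 in untreated and 6.27, 6.16 and 6.23 in treated cells, with no overlap (change -0.70, SE 0.08, limma adjusted p = 0.000179). Rhob, a small GTPase gene, had a change of -0.57 (SE 0.11), the kinase gene Pim1 one of -0.49 (SE 0.08) and Zfp36, whose protein destabilises messenger RNAs, one of -0.37 (SE 0.08). The call was lost in 15 of 24 other fits for Zfp36, 3 of 24 for Pim1 and 6 of 23 for Rhob. Klf10 (0.50, limma adjusted p = 0.0577), Jun (0.42, limma adjusted p = 0.0989), Egr1 (0.26) and Fos (-0.13) were not called.

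The largest falls were those of Dido1, Mab21l2 and Ppp1r10. Dido1, named for a role in cell death, read 8.45, 8.29 and 8.48 against 7.59, 7.50 and 7.72 (change -0.80, SE 0.08, limma adjusted p = 7.16e-05). Ppp1r10, a nuclear regulatory subunit of protein phosphatase 1, stood at 8.86, 8.49 and 8.50 against 7.92, 7.76 and 7.89 (change -0.76, SE 0.09, limma adjusted p = 0.000681). Treated arrays were lower throughout for both. Mab21l2, a developmental gene of the eye and brain, had 5.94, 6.22 and 6.39 against 5.46, 5.28 and 5.53 (change -0.76, SE 0.13) and was the only call of 16 neural genes. Mab21l2 overlaps Lrba in RefSeq, and neural marker means were 6.07 to 6.10 in untreated and 5.91 to 6.05 in treated arrays. Their part in the result was not tested. Dido1, Ppp1r10 and Gadd45b were the only falls whose call held in every other fit made per gene that tested them, against 25 of the 51 rises.

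Other falls were smaller. The semaphorin gene Sema4c had a change of -0.64 (SE 0.12), the homeobox gene Six4 -0.54 and its relative Six5 -0.39. Bmf, a pro-apoptotic BH3-only gene, read 6.54, 6.66 and 6.82 against 6.11, 6.24 and 6.12 (change -0.52, SE 0.10). Growth-restraining Ccng2 (-0.45) and Hbp1 (-0.40), the ubiquitin ligase adaptor gene Klhl24 (-0.45) and the autophagy kinase gene Ulk1 (-0.36) were called lower, as were the integrin gene Itgb8 (-0.49), the phosphodiesterase gene Pde4b (-0.45) and the growth factor gene Pdgfb (-0.39). Of 24 other fits, 15 lost the call of Ccng2, 16 that of Pde4b and 8 that of Hbp1. For Six4, Sema4c and Bmf the losses were 9, 7 and 7, and for Six5 9 of 22. For Ulk1, Itgb8 and Klhl24 the losses were 7, 6 and 5, and for Pdgfb 7 of 22. All treated values of Six5 and Pdgfb were below background, and against that level the untreated means were at least 1.09-fold and at least 1.10-fold higher. For Gprc5c, the only called gene with a second probe, the brighter probe gave -0.50 and the other -0.08.

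**Figure D4:**
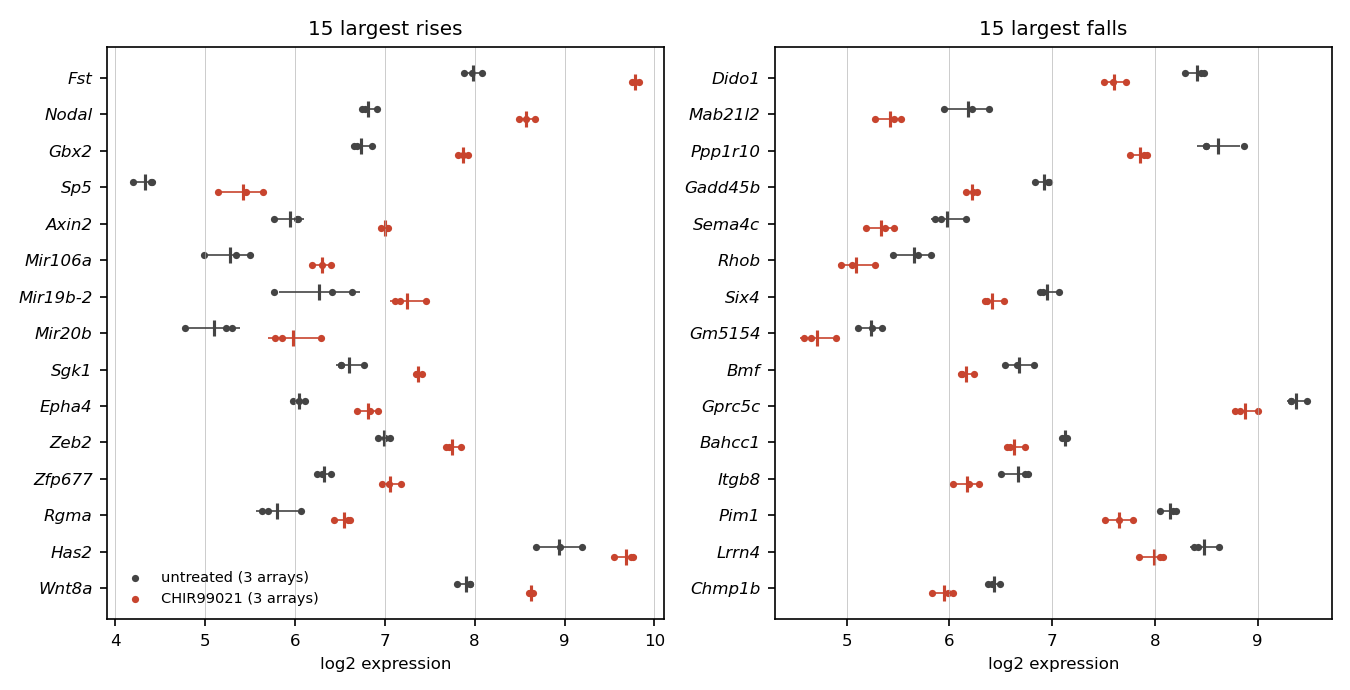
Log2 expression (horizontal axis) in each of 3 untreated (dark) and 3 CHIR99021 (red) arrays for the 15 genes with the largest rises and the 15 with the largest falls, with the mean as a tick and the SD as a line. In all 30 genes the arrays of one group lie apart from those of the other.

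The CHIR99021 contrast was also made in the presence of XAV939, a tankyrase inhibitor that stabilises Axin, on 6 other arrays (both compounds minus XAV939). There, 47 genes were called, 0.236% of those tested. All 84 genes called without XAV939 had the same sign with it, 23 were called again (15 higher and 8 lower), and 76 had a smaller change. The median size was 0.50 without and 0.34 with XAV939. The 84 were picked by the first contrast and not by the second, so neither the 2 medians nor the count of smaller changes is an even comparison. Fst had a change of 1.68 and Nodal one of 1.49 with XAV939, both called. Axin2 (0.72) and Gbx2 (0.72) were called again, and Sp5 (0.51, limma adjusted p = 0.145) was not. Dido1 had -0.77, close to its value without XAV939.

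The difference between the changes without and with XAV939 was tested as an interaction, and limma called no gene at an adjusted p under 0.05. The smallest adjusted p was 0.107, and 985 genes had an unadjusted p under 0.05, among them 31 of the 84. The 84 were picked by a contrast that is itself a part of the interaction. The count of 31 is therefore not an even comparison with all genes, and no conclusion is drawn from it. With trended, robust variances 1 gene was called. Dmrta1 had the smallest interaction p of the 84, with a change of 0.72 without and 0.17 with XAV939 (limma adjusted p = 0.578). The change without XAV939 exceeded that with it by 0.57 (SE 0.18) for Sp5, by 0.42 (SE 0.13) for Gbx2 and by 0.34 (SE 0.14) for Axin2. The adjusted interaction p in limma was 0.965 for all 3. The change of these genes is therefore not shown to differ between the conditions, nor to be alike.

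**Figure D5:**
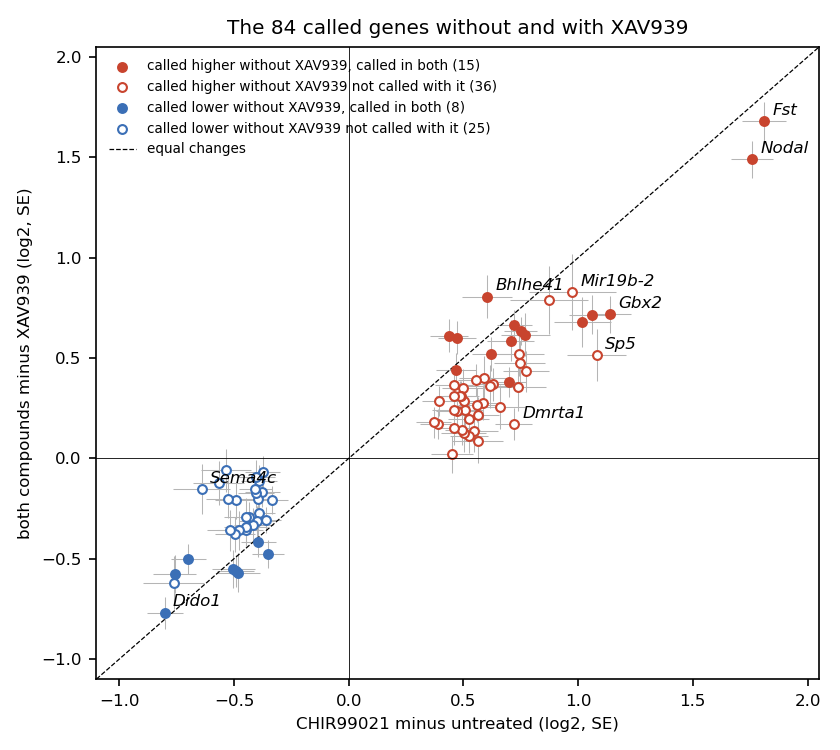
Change after CHIR99021 without XAV939 (horizontal axis, log2) and with it (vertical axis, log2) for the 84 genes called without XAV939, with SE as grey lines, filled points for genes called in both contrasts and a dashed line of equal changes. All points lie on the same side of 0 in both contrasts, and 76 have a smaller change with XAV939.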

How the data were processed

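Total RNA of mouse EpiSCs was hybridised to 1-colour Affymetrix arrays, per the labels' protocols. Values per probe, as deposited, were taken to be log2 expression, a base inferred from their range (2.52 to 14.3). The authors used Partek, per the submitters' processing notes. The normalization was not given in the sources used here. Of 35399 probes, 21789 had 1 gene symbol, 1621 several and 11989 were not listed. No RefSeq match (GRCm38.p6) was found for 91 of the first. Each of 19938 genes was represented by its brightest probe over 12 arrays (999 had more than 1). No further normalization was applied.

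A group-means model of the 12 arrays was run in limma 3.58.1 under R 4.3.3 (lmFit, eBayes, two-sided; 8 residual and 8.03 prior degrees of freedom), with statmod 1.5.0. Benjamini-Hochberg adjustment ran over all genes, and an adjusted p under 0.05 was called. The fit was tested on simulated data. Arrays carry no read depth, and 3 arrays per group limit the precision. Overlapping genes cannot always be told apart. Alternatives were other normalizations, filters on dim genes, other probe rules, variance models, array weights, covariates, a replicate block, thresholds and leaving out arrays.

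Named were the 15 largest called changes each way, other called genes, list members called or with the smallest p, and fixed genes. Members and gene lists were chosen with earlier results of these data known. Some other list genes were not analysed here. Python 3.11.15 and matplotlib 3.10.9 drew the figures.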

Additional observations from a re-analysis of the deposited data

Results flagged for a closer look

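Probes outside the comparison of genes also responded. When all 35399 probes were fitted together, 27 passed an adjusted p under 0.05 in limma for CHIR99021 against untreated. These were 3 of 11989 probes that carry no gene symbol here and 24 of 21789 with 1 symbol (21 higher and 3 lower). The 3 unnamed probes were all higher with the compound: probe 10342868 by 1.53 (SE 0.17), probe 10599812 by 0.77 (SE 0.08) and probe 10474520 by 0.52 (SE 0.08). What they measure is not known here.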

How the results depend on the processing

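The 84 calls (51 higher and 33 lower) kept their sign in each of the 22 to 24 other fits made per gene that tested them. In all of those fits, 28 genes (25 higher and 3 lower) kept their call. The fit of all 35399 probes together was not among them, and it called only 24 probes with 1 symbol (21 higher and 3 lower). With 1 array left out, the total ranged from 34 to 97, the rises from 29 to 58 and the falls from 5 to 39. Without untreated replicate 3 and XAV939 replicate 2, the arrays of lowest spread, there were 42 calls (31 higher and 11 lower). A fold of at least 1.5 left 30 (25 higher and 5 lower), and an adjusted p under 0.01 left 33 (29 higher and 4 lower). Falls numbered 16 when only the untreated and CHIR99021 arrays were fitted and 50 with array weights. The interaction had 0 calls, and 1 with trended, robust variances. With the replicate block there were 78 calls (53 higher and 25 lower). Same-numbered untreated and CHIR99021 arrays had correlated deviations of -0.08, 0.00 and -0.10, so the numbers gave no pairing. Of 92 named genes that were not called, 11 were called in some fit, Fgf4 and Klf10 most often. The causes were not tested. Genes near background, such as Sp5, Cdx2 and Dkk1, are measured less well on these arrays.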
